A study of Medicago truncatula with 6 samples.

Results

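Starch is built and taken apart in plastids by separate sets of enzymes, and 6 genes of these sets were followed in roots of *Medicago truncatula* grown with or without the fungus *Gongronella* sp. w5 (w5). They are 3 genes of starch synthesis and 3 genes of breakdown, among 50443 genes in the expression table. The synthesis genes are Medtr4g070430 and Medtr4g131760, both annotated as ADP-glucose pyrophosphorylase, and Medtr3g115340, annotated as starch branching enzyme I. The breakdown genes are the beta-amylases Medtr2g020240 and Medtr4g099110 and the alpha-glucan phosphorylase Medtr4g082950. All 6 were chosen by their difference between roots with and without w5 in these same libraries, since each stands in the study's list of changed genes. Their differences between the groups are therefore described here without a test.

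The roots came from *M. truncatula* A17 seedlings on agar plates, in 3 libraries without w5 (control) and 3 libraries with w5 (w5), which the methods describe as biological replicates. The roots in contact with w5 were harvested at 16 days post-inoculation (dpi), and the labels give no day for the control roots. In the w5 plates the fungus was placed on one side of the plate, on a medium with glucose, and the seedlings stood on the other side, on a medium without it. The control plants were grown alone on the medium without glucose, and the sources do not say whether their plates also held the glucose side. The presence of w5 and that of the glucose medium therefore cannot be told apart here. Neither do the sources say how many plants went into a library. No root marker could be checked, because descriptions were at hand only for genes in the study's list of changed genes.

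ADP-glucose pyrophosphorylase makes ADP-glucose, the glucosyl donor of starch, from glucose 1-phosphate and ATP, and is widely held to be the main control point of starch synthesis. Starch branching enzyme cuts a linear glucan chain and joins the piece to another chain as a side branch, which gives amylopectin its branched form. Beta-amylase removes maltose units from the outer ends of the chains, and alpha-glucan phosphorylase releases glucose 1-phosphate from the same ends with the help of phosphate. In roots, starch is stored in amyloplasts and is made from sucrose that arrives from the shoot. The annotation at hand does not say in which compartment the 6 products lie, which pyrophosphorylase subunit each of the 2 genes encodes, or whether each beta-amylase is active on starch.

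By their IDs, 4 of the 6 genes lie on chromosome 4, with Medtr3g115340 on chromosome 3 and Medtr2g020240 on chromosome 2. The expression table gives a length for each gene model, from 1789 bases for Medtr4g131760 to 3844 bases for Medtr3g115340, but no positions, and the one annotation at hand is of another assembly. Start and end positions, exons and sequences are therefore not analysed here.

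The libraries held between 6547753 and 7539956 read counts, with the highest total in control replicate 1. Levels are given as FPKM, the reads per kilobase of gene model and per 1000000 counts of the library, so that genes of different length can be compared. Differences are given as log2 fold changes of w5 against control, fitted with edgeR to the counts of all 16905 genes that passed its expression filter, in which all 6 genes were kept. The median log2 fold change over these 16905 genes was -0.0059. Of them, 806 passed a p of 0.05, not adjusted, together with a log2 fold change beyond 1 in either direction, which is 4.77%, with 2.03% higher and 2.73% lower with w5. All 6 genes met this pair of thresholds, 2 of them higher and 4 lower with w5, but such thresholds had chosen them, so nothing is read from that count. After Benjamini-Hochberg adjustment over all tested genes, edgeR left 3 genes at an adjusted p of 0.05, which is 0.0177%, and none of the 6 was among them. DESeq2 was given 25377 genes without that filter, but by default it leaves genes with low counts out of its own adjustment. It left 540 genes at the same limit, all 6 included. Nothing is read from that count either, since the 6 were chosen on this contrast.

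The pyrophosphorylase gene Medtr4g070430 had the largest upward difference of the 6 genes. It had 36.9, 76.2 and 80.8 FPKM in control replicates 1, 2 and 3, and 136, 243 and 247 FPKM in w5 replicates 1, 2 and 3. All libraries with w5 lay above all controls, and the lowest library of either group was its replicate 1. The means were 64.6 ± 24.2 FPKM in the control and 208 ± 62.9 FPKM with w5 (SD, n = 3 per group). On the log2 scale the level was higher by 1.70 with w5 (standard error 0.34), or 3.25-fold. In w5 replicate 3 the gene stood above 98.7% of the 21601 genes with a count, and in control replicate 1 above 85.5% of 22072.

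The other pyrophosphorylase gene, Medtr4g131760, went the opposite way, from a far lower level. It had 16.6, 6.31 and 3.68 FPKM in control replicates 1, 2 and 3, and 2.90, 0.655 and 0.419 FPKM in w5 replicates 1, 2 and 3. The groups did not overlap, but control replicate 3 and w5 replicate 1 were close to each other. These 2 levels rest on 46 and 34 counts, with exact 95% Poisson intervals of 33.7 to 61.4 and 23.5 to 47.5 counts, which overlap and cover counting error only. The lowest level rests on 5 counts in w5 replicate 3 (interval 1.62 to 11.7), against 224 counts in control replicate 1 (interval 196 to 255). The log2 fold change was -2.73 (standard error 0.77), the largest difference of the 6 genes and the one with the largest error. Without w5 replicate 1 it was -3.99, and without control replicate 1 it was -1.89.

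The makeup of the pyrophosphorylase pair differed between the groups and among the controls. Medtr4g131760 gave 31.1%, 7.65% and 4.36% of the summed FPKM of the pair in control replicates 1, 2 and 3, and 2.09%, 0.269% and 0.170% in w5 replicates 1, 2 and 3. Medtr4g070430 was the more abundant of the pair in every library, by 2.22 times in control replicate 1 and by 46.8 times in w5 replicate 1. In w5 replicates 2 and 3 the share rests on 8 and 5 counts of Medtr4g131760, with exact 95% Poisson intervals of 3.45 to 15.8 and 1.62 to 11.7 counts that overlap, so these libraries cannot be ordered and the ratio is not given. The summed level of the pair was 73.5 ± 17.4 FPKM in the control and 210 ± 61.5 FPKM with w5 (SD, n = 3 per group), 2.85-fold higher, so the sum followed Medtr4g070430. Because ADP-glucose pyrophosphorylase is formed of small and large subunits that several genes encode, the total of these 2 genes is not the total of the enzyme's transcripts.

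The branching enzyme gene Medtr3g115340 was the only gene of the 6 whose groups overlapped. Groups that do not overlap were found in 16.1% of all tested genes, and nothing is read from their number among genes chosen on this contrast. It had 41.7, 107 and 89.7 FPKM in control replicates 1, 2 and 3, and 99.7, 232 and 231 FPKM in w5 replicates 1, 2 and 3. Control replicate 2 stood above w5 replicate 1, while w5 replicates 2 and 3 stood above all controls. The means were 79.3 ± 33.6 FPKM in the control and 187 ± 75.9 FPKM with w5 (SD, n = 3 per group), and the log2 fold change was 1.25 (standard error 0.41). It was 0.96 without control replicate 1, below the fold threshold, and the gene also missed the thresholds without w5 replicate 3.

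The ratio between the synthesis genes with a high level varied less than either level. Medtr3g115340 had between 0.734 and 1.40 times the FPKM of Medtr4g070430 over the 6 libraries, a span of 1.90-fold. The levels themselves spanned 6.69-fold for Medtr4g070430 and 5.55-fold for Medtr3g115340 over the same libraries. Both genes were chosen as higher with w5, so a narrower span of their ratio follows in part from the choice. The ratio was 1.13, 1.40 and 1.11 in control replicates 1, 2 and 3, and 0.734, 0.954 and 0.936 in w5 replicates 1, 2 and 3. The branching enzyme gene was thus the more abundant of the 2 in every control library, and the pyrophosphorylase gene in every library with w5.

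**Figure D1:**
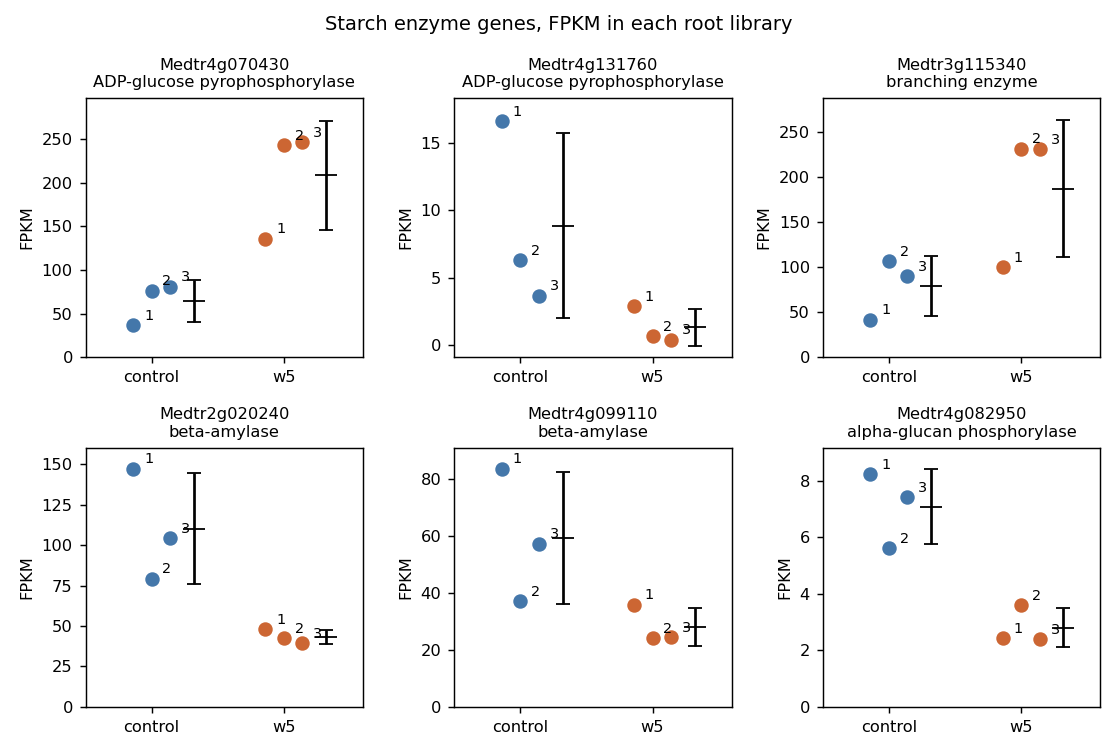
FPKM (vertical axis, from 0 or just below it, a different scale in each panel) of the 6 genes in the 3 control libraries (blue) and the 3 w5 libraries (orange), with the replicate number beside each point and the mean ± SD of the group (n = 3) in black. Medtr4g070430 and Medtr3g115340 are higher with w5 and the other 4 genes are lower, and only the groups of Medtr3g115340 overlap (groups are apart in 16.1% of all tested genes).

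Among the breakdown genes, the beta-amylase gene Medtr2g020240 was the most abundant and had the smallest standard error of the 6 genes. It had 147, 79.1 and 104 FPKM in control replicates 1, 2 and 3, and 48.0, 42.3 and 39.4 FPKM in w5 replicates 1, 2 and 3. Every library with w5 was below every control, and the libraries with w5 were close together. The means were 110 ± 34.4 FPKM in the control and 43.2 ± 4.36 FPKM with w5 (SD, n = 3 per group), with a log2 fold change of -1.34 (standard error 0.23).

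The beta-amylase gene Medtr4g099110 stood at a lower level and had the smallest difference of the 6 genes. It had 83.5, 37.2 and 57.3 FPKM in control replicates 1, 2 and 3, and 35.9, 24.2 and 24.4 FPKM in w5 replicates 1, 2 and 3. The groups did not overlap, but control replicate 2 and w5 replicate 1 were nearly level, and they rest on 538 counts (exact 95% Poisson interval 493 to 585) and 480 counts (interval 438 to 525) in libraries of unequal total. The log2 fold change was -1.06 (standard error 0.30), which is the value nearest to the fold threshold of 1 among the 6 genes. It was -0.73 without control replicate 1, -0.95 without w5 replicate 2 and -0.98 without w5 replicate 3, and in these 3 cases the gene missed the thresholds.

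The alpha-glucan phosphorylase gene Medtr4g082950 was a minor transcript beside the beta-amylases. It had 8.22, 5.61 and 7.40 FPKM in control replicates 1, 2 and 3, and 2.43, 3.60 and 2.38 FPKM in w5 replicates 1, 2 and 3. The groups were apart, with 120 counts in the lowest control and 74 counts in the highest library with w5, and exact 95% Poisson intervals of 99.5 to 143 and 58.1 to 92.9 counts. The means were 7.08 ± 1.33 FPKM in the control and 2.80 ± 0.686 FPKM with w5 (SD, n = 3 per group), with a log2 fold change of -1.32 (standard error 0.26). With any 1 library left out, its log2 fold change stayed between -1.53 and -1.19. The beta-amylase gene Medtr2g020240 had between 11.8 and 19.8 times the FPKM of the phosphorylase gene.

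The ratio between the beta-amylase genes also varied less than either level. Both were chosen as lower with w5, so this too follows in part from the choice. Medtr2g020240 had between 1.34 and 2.13 times the FPKM of Medtr4g099110, a span of 1.59-fold, while the 2 levels spanned 3.73-fold and 3.45-fold over the 6 libraries. The ratio was 1.76, 2.13 and 1.82 in control replicates 1, 2 and 3, and 1.34, 1.75 and 1.61 in w5 replicates 1, 2 and 3. All beta-amylase transcripts of the pair summed to 170 ± 57.6 FPKM in the control and 71.4 ± 10.9 FPKM with w5 (SD, n = 3 per group).

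The order of the 6 genes by level differed between the groups. In the control the means ran from Medtr2g020240 (110 FPKM) through Medtr3g115340 (79.3 FPKM), Medtr4g070430 (64.6 FPKM) and Medtr4g099110 (59.3 FPKM) to Medtr4g131760 (8.87 FPKM) and Medtr4g082950 (7.08 FPKM). The ranges of the first 4 overlapped among the control libraries, and so did those of the last 2. With w5 the means ran from Medtr4g070430 (208 FPKM) and Medtr3g115340 (187 FPKM) through Medtr2g020240 (43.2 FPKM) and Medtr4g099110 (28.2 FPKM) to Medtr4g082950 (2.80 FPKM) and Medtr4g131760 (1.33 FPKM). There the lowest library of either leading gene was above the highest library of either beta-amylase, and the ranges of the beta-amylases did not overlap. The ranges of Medtr4g070430 and Medtr3g115340 overlapped, as did those of Medtr4g082950 and Medtr4g131760.

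The synthesis to breakdown ratio of a library was taken as the summed FPKM of the 3 synthesis genes over that of the 3 breakdown genes. It was 0.399, 1.55 and 1.03 in control replicates 1, 2 and 3, and 2.76, 6.78 and 7.21 in w5 replicates 1, 2 and 3. All libraries with w5 lay above all controls, and breakdown transcripts outweighed synthesis transcripts only in control replicate 1. The mean ratio was 0.993 ± 0.577 in the control and 5.58 ± 2.45 with w5 (SD, n = 3 per group), 5.62-fold higher. It was 4.33-fold higher without control replicate 1 and 7.82-fold higher without control replicate 2. As the genes were chosen for their difference between the groups, and most of the synthesis sum comes from the 2 genes that were chosen as higher, a higher ratio with w5 follows from the choice, and only its size and its course over the libraries are a description.

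Both sides of the ratio contributed to it. Summed synthesis was 95.2, 189 and 174 FPKM in control replicates 1, 2 and 3, and 238, 475 and 478 FPKM in w5 replicates 1, 2 and 3. Summed breakdown was 239, 122 and 169 FPKM in the control replicates and 86.3, 70.1 and 66.3 FPKM in the w5 replicates, in the same order. The mean sums were 2.60-fold higher for synthesis, and 0.420 of the control for breakdown. The 6 genes together gave 311 to 343 FPKM in the control libraries and 325 FPKM in w5 replicate 1, and 545 and 544 FPKM in w5 replicates 2 and 3.

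The ratio was higher in every library with w5 than in every control under each of 7 other definitions. These recombine the same genes, which were chosen on this contrast, so they are no separate support for a higher ratio. With the pyrophosphorylases alone as synthesis, the mean ratio was 0.467 ± 0.228 in the control and 2.94 ± 1.16 with w5, and with the branching enzyme alone it was 0.526 ± 0.350 and 2.65 ± 1.30 (SD, n = 3 per group). The gap was smaller when each gene counted equally, with the geometric mean of the 3 synthesis genes over that of the 3 breakdown genes. This gave 0.632, 1.46 and 0.845 in control replicates 1, 2 and 3, and 2.11, 2.16 and 2.18 in w5 replicates 1, 2 and 3, a 2.20-fold higher mean. In this form Medtr4g131760, which was lower with w5, has the same weight as the abundant synthesis genes. It rests on 34, 8 and 5 counts in w5 replicates 1, 2 and 3, so nothing is read from how close these libraries are to each other.

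**Figure D2:**
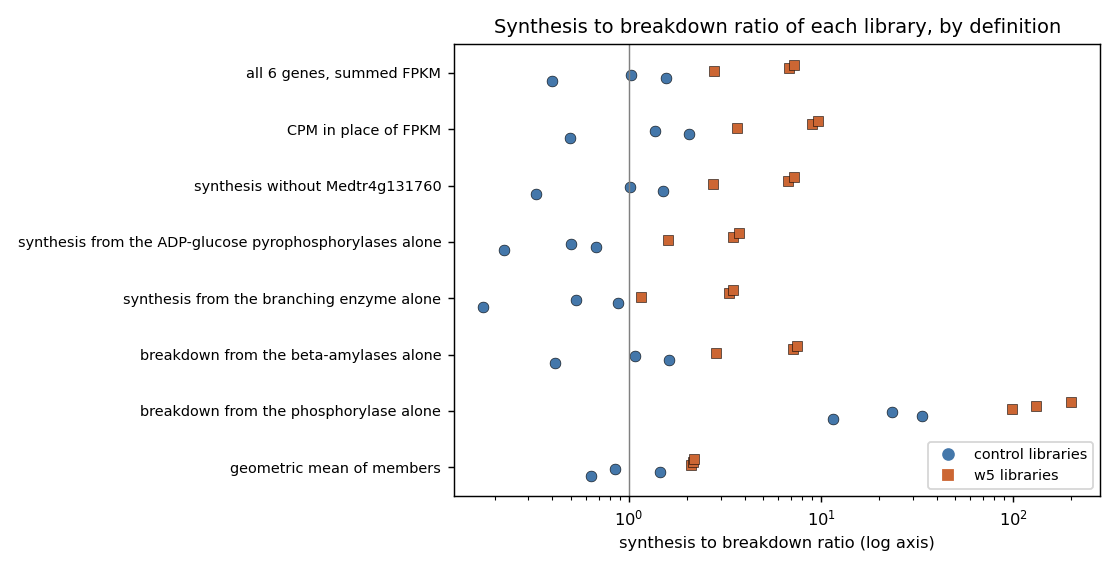
Synthesis to breakdown ratio (horizontal log axis, no unit) of the 3 control libraries (blue circles) and the 3 w5 libraries (orange squares) under 8 definitions of the ratio, one in each row, with a grey line at a ratio of 1. In each row the 3 w5 libraries are to the right of the 3 control libraries, between 2.76 and 7.21 for the summed FPKM of all 6 genes. All rows use the same genes, which were chosen on this contrast.

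Libraries of the same group differed from each other in a pattern that most of the 6 genes shared. Control replicate 1 was the control library farthest from the w5 libraries in all 6 genes, with the lowest levels of Medtr4g070430 and Medtr3g115340 and the highest levels of the other 4. Likewise, w5 replicate 1 was the w5 library nearest to the controls in 5 of the 6 genes. The exception was Medtr4g082950, where w5 replicates 1 and 3 had 48 counts each and w5 replicate 2 had 74. In the other 5 genes replicate 1 therefore deviated the same way in both groups. It was the lowest of both groups for Medtr4g070430 and Medtr3g115340, and the highest of both for Medtr4g131760, Medtr2g020240 and Medtr4g099110. The shares of all tested genes with these patterns were not counted, so the patterns are not read as particular to the starch genes. The synthesis to breakdown ratio spanned 18.1-fold over the 6 libraries, from control replicate 1 to w5 replicate 3. This span includes the difference between the groups.

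The spread between replicates was larger in each of the 3 synthesis genes than in each of the 3 breakdown genes. The within-group SD of log2 CPM, where CPM are counts per 1000000 scaled counts, was 0.571 for Medtr4g070430, 1.17 for Medtr4g131760 and 0.715 for Medtr3g115340. These values were above those of 82.4%, 98.1% and 90.2% of the tested genes, whose median SD was 0.308. For Medtr2g020240, Medtr4g099110 and Medtr4g082950 the SD was 0.330, 0.469 and 0.301, above 54.4%, 73.8% and 48.5% of the tested genes. In Medtr2g020240 the SD was 0.448 among the controls and 0.132 with w5. The spread does not use the difference between the groups, but it was not compared between the 2 sets by a test.

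Genes of the photosystems and light harvesting moved with the groups as well. Of 43 such genes that could be taken by name from the study's list of changed genes, 41 were tested and all 41 were lower with w5 at the same thresholds, with a median log2 fold change of -1.46. The study picked them on these libraries, so their direction is not independent evidence. The summed level of the 41 was 9069, 10487 and 5698 CPM in control replicates 1, 2 and 3, and 2919, 2925 and 3824 CPM in w5 replicates 1, 2 and 3, and none of the 43 genes was at 0 in any library. The 4 starch genes that were lower with w5 were highest in control replicate 1, whereas the photosystem sum was highest in control replicate 2. Medtr4g131760 was 2.63 times as high, in CPM, in control replicate 1 as in control replicate 2, where the photosystem sum was larger. The sum weighs the abundant genes most and does not give the course of each of the 41. In these whole-root samples, fewer cells with green plastids and less RNA per cell cannot be told apart, and the part of green tissue in the levels of the starch genes was not tested.

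**Figure D3:**
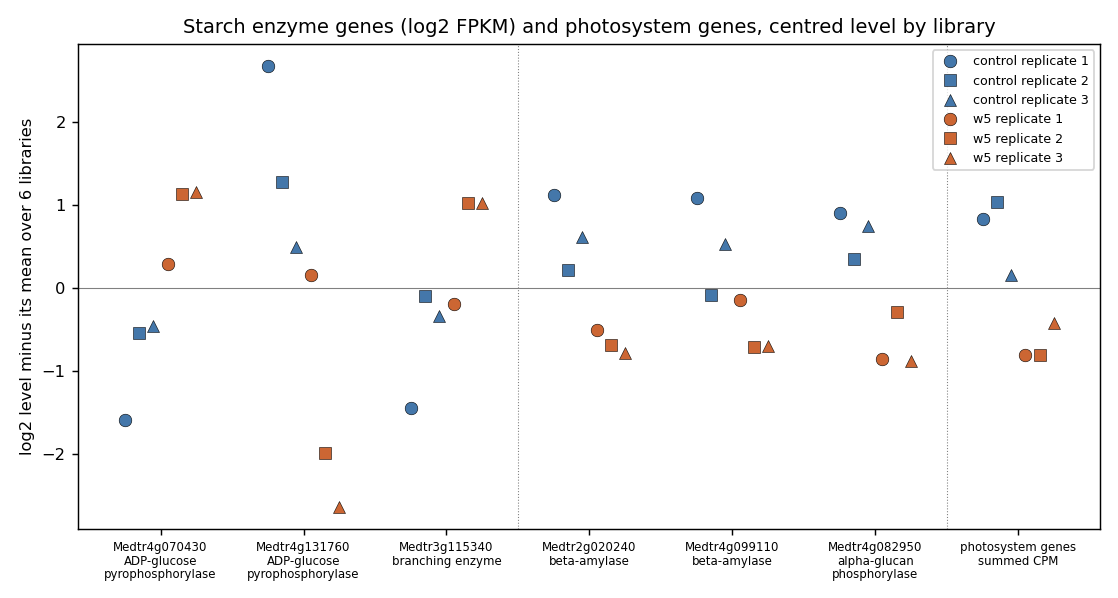
Log2 level of each gene minus its mean over the 6 libraries (vertical axis, log2 FPKM for the starch genes and log2 of the summed CPM for the 41 tested photosystem genes) in control (blue) and w5 (orange) libraries, with circles for replicate 1, squares for replicate 2 and triangles for replicate 3. Control replicate 1 is the control farthest from the w5 libraries in all 6 starch genes, while the photosystem genes are highest in control replicate 2. The share of all tested genes with the pattern of the starch genes was not counted.

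Descriptions were at hand only for the genes in the study's list of changed genes, and no proteins, so starch genes outside that list could not be named. Within the study's list of changed genes, 19 carry the Gene Ontology term for starch biosynthesis. Of these, 18 were lower with w5 and only Medtr4g070430 was higher at the thresholds above, which the choice of that list fixes. Among the 18 are Medtr3g070100, a sedoheptulose-1,7-bisphosphatase of the Calvin cycle (log2 fold change -2.11), and Medtr2g082580, an oxygen-evolving enhancer protein (log2 fold change -1.62). Apart from the pyrophosphorylase genes, none of the 19 is annotated as an enzyme of starch itself.

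A further gene was looked at after its values had been seen, and whether it takes part in starch synthesis was not tested. Medtr2g022700 is annotated as a glucose-6-phosphate/phosphate translocator-like protein, a kind of carrier that brings hexose phosphate into plastids that do not photosynthesise. It had 16.1, 28.4 and 35.9 FPKM in control replicates 1, 2 and 3, and 67.2, 186 and 163 FPKM in w5 replicates 1, 2 and 3. As in Medtr4g070430, control replicate 1 was the lowest control and w5 replicate 1 the lowest library with w5. On the log2 scale it was higher by 2.39 with w5 (standard error 0.42), and it too stands in the study's list of changed genes.

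The tested genes with the course most like that of each starch gene were found by the root-mean-square difference of log2 CPM, centred on the mean of the 6 libraries. For Medtr4g070430 they were Medtr7g062150, annotated as a haloacid dehalogenase-like hydrolase, and Medtr4g101310, a gene of the protease inhibitor, seed storage and lipid transfer protein family, with differences of 0.20 and 0.25. Medtr4g101310 was also the nearest gene to Medtr3g115340 (0.16), followed by Medtr5g093900, annotated as indole-3-acetate O-methyltransferase-like (0.18), which rests on only 6 to 34 counts per library. Medtr4g101310 had 65, 189 and 165 counts in control replicates 1, 2 and 3, and 192, 357 and 406 counts in w5 replicates 1, 2 and 3.

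The nearest gene to Medtr4g099110 was Medtr4g015180, with no description at hand, at a difference of 0.080. Its log2 fold change of -0.98 was just outside the fold threshold, as that of Medtr4g099110 (-1.06) was just inside. Medtr3g075450, annotated as a sieve element occlusion protein, came next (0.14), and the same gene was nearest to Medtr2g020240 (0.13), followed by the pentatricopeptide repeat gene Medtr5g071190 (0.16). For Medtr4g082950 they were Medtr1g041890, a putative peptide chain release factor (0.16), and Medtr5g076380, of the P-loop nucleoside triphosphate hydrolases (0.17). For Medtr4g131760 the nearest courses were much farther away. They were those of Medtr7g085490, annotated as a putative protein of NDH-dependent cyclic electron flow (0.45), and Medtr1g066530, an albumin-2 (0.45). In w5 replicates 2 and 3 these genes had 21 and 9 counts and 18 and 13 counts. Medtr4g131760 had 8 and 5 there, so counting error bears on these distances. Since the difference between the groups is part of this measure, genes with a difference of the same size and sign come first by construction.

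**Figure D4:**
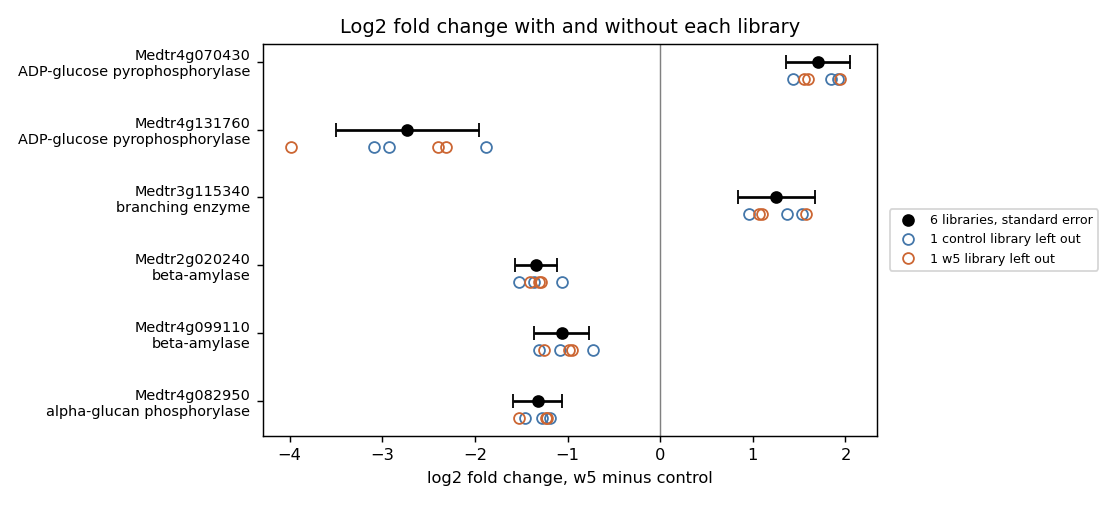
Log2 fold change of w5 against control (horizontal axis) of the 6 genes from all 6 libraries (black, with the standard error as bars) and with 1 control library (blue circles) or 1 w5 library (orange circles) left out. Each gene keeps its sign throughout, and Medtr4g131760 has the widest range, from -3.99 to -1.89.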

How the data were processed

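Root RNA was sequenced in 3 control and 3 w5 libraries with a stranded total RNA kit. The read counts per gene stand in the deposited table as raw whole numbers. The authors derived FPKM from count, gene length and library total, which was recomputed for all 131099 values above 0 (largest relative difference 5.09e-15). The submitters' processing notes name Bowtie 0.12.2 and mm8, a mouse build, while the methods name *M. truncatula* as the reference. The counting program and its strand setting are not stated, so reads of close gene copies may be shared.

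Genes were filtered by filterByExpr, scaled by TMM (factors 0.984 to 1.01) and fitted with edgeR 4.0.16 (quasi-likelihood, robust, condition only) in R 4.3.3. Log2 CPM used a prior count of 2. Alternatives used DESeq2 1.42.0, limma 3.58.1 (voom), other scaling, other filters, a replicate block and each library left out. The edgeR fit was also run on counts simulated at the spread typical for each level. That run does not cover genes of larger spread, such as the synthesis genes here, and nothing is read from it.

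The genes named are the 6 members and, for each, the 2 tested genes with the nearest course. Descriptions and Gene Ontology terms are those given in the study's list of changed genes, and no fold change or p-value of that list was used. Members and lists were chosen with earlier results of these data known. Medtr2g022700, the list by Gene Ontology term and the 2 genes named from it were added after their values were seen. The planned lists by protein similarity, by description and by promoter motif and the root markers could not be filled, because no protein or promoter table was at hand and descriptions covered only that list. P-values here test the difference of w5 against control relative to the spread between these libraries, which edgeR estimates with information shared across genes. They do not cover variation beyond these libraries.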

Additional observations from a re-analysis of the deposited data

How the results depend on the processing

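All 6 log2 fold changes kept their sign under each of 14 alternatives, and 4 genes also kept the thresholds in all 14. The branching enzyme gene Medtr3g115340 kept them in 12 and the beta-amylase gene Medtr4g099110 in 11, and each loss came with a library left out. With each library left out in turn, the log2 fold change lay between 1.43 and 1.95 for Medtr4g070430, -3.99 and -1.89 for Medtr4g131760, 0.96 and 1.57 for Medtr3g115340, -1.53 and -1.07 for Medtr2g020240, -1.31 and -0.73 for Medtr4g099110, and -1.53 and -1.19 for Medtr4g082950. The synthesis to breakdown ratio was 5.62-fold higher with w5, between 4.33-fold and 7.82-fold with each library left out, 2.20-fold with geometric means, where each gene has equal weight by construction, and between 5.03-fold and 6.29-fold under the other definitions. The number of genes past the thresholds was 806, and between 800 and 1170 under the alternatives. The share of them that was higher with w5 was 42.7%, and 57.2% without control replicate 1. The replicate number was not used as a pairing in the main fit. Same-numbered libraries deviated together with correlations of 0.23, -0.054 and -0.028 across genes, and differently numbered ones with -0.225 to 0.236. The genes are not independent, and these values cannot decide whether there was a pairing. In 5 of the 6 starch genes replicate 1 deviated the same way in both groups, but the share of all tested genes that did so was not counted. The labels do not say whether the numbers mark a pairing. With the replicate block 849 genes were past the thresholds. The standard error was then 0.19 in place of 0.34 for Medtr4g070430, 0.34 in place of 0.77 for Medtr4g131760, and 0.18 in place of 0.41 for Medtr3g115340. For Medtr2g020240, Medtr4g099110 and Medtr4g082950 it was 0.20, 0.20 and 0.30, in place of 0.23, 0.30 and 0.26. At an adjusted p of 0.05 the count depended more on the setting. Of 16905 genes, edgeR gave 3 and none of the 6 starch genes, and 176 and 4 of the 6 with the replicate block. Of 25377 genes, it gave 195 and 2 of the 6 without a filter. DESeq2, given 25377 genes and using its own default filter before adjustment, gave 540 and all 6. Without control replicate 3, edgeR gave 103 of 17398 genes and none of the 6. Because the 6 were chosen on this contrast, nothing is read from how many of them passed. The other 10 alternatives gave 1 to 3 genes and none of the 6. The alternatives for genes found by protein similarity were not run. Low counts limit Medtr4g131760 in the w5 libraries.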
